A study of Mus musculus with 4 samples.

Results

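Aldehydes released from peroxidised lipids are cleared by enzymes that reduce, oxidise or conjugate them, and 9 such enzyme genes were examined in macrophages given necrotic fat: Akr1b8, Akr1b3, Akr1a1, Gsta4, Aldh2, Aldh3a2, Aldh3b1, Aldh9a1 and Ptgr1. They were matched by symbol among the 17013 genes listed, and all 9 were found. The genes were chosen by their known role and with the difference between the media already known, so their differences between the media are given as a description and not as a test. Bone marrow cells of wild-type (WT) mice were grown into macrophages with M-CSF, seeded on porous inserts and cultured for 24 h. Both groups received aNBF, an artificial necrotic bone fluid made from freeze-thawed bone. Abdominal fat was digested, freeze-thawed and spun, and the groups differ in which layer of it the cells were given, the fatty layer on top (high-fat-containing medium, Fat) or the middle one (fat control medium, Con). Each medium has 2 libraries, and values are given with replicate 1 first. Per the methods, the bone marrow and fat came from male C57BL/6 mice. Whether the replicates were separate cultures or separate mice is not given in the sources used here, so p-values measure the spread between these libraries.

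When unsaturated fatty acids peroxidise, they break into reactive aldehydes such as 4-hydroxynonenal and into saturated aldehydes, which bind proteins and DNA. Aldo-keto reductases turn the aldehyde group into an alcohol, aldehyde dehydrogenases turn it into an acid, glutathione transferases of the alpha class couple the molecule to glutathione, and Ptgr1 reduces its double bond. Several genes of this system are known targets of the transcription factor NRF2, which is released from Keap1 by electrophiles and binds the antioxidant response element.

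The promoters of 6 of the 9 genes were matched by symbol in the RefSeq table (build GRCm38.p6), each running from 250 bases before to 50 bases after the start of the gene, and Akr1b3, Gsta4 and Aldh2 were not matched. The core of the antioxidant response element was searched as TGACNNNGC on both strands. It was found in the promoter of 1 of the 6, Aldh9a1. Of the 32851 promoters of this length in the table, 12.4% held it, and of the 9348 tested genes with a promoter there, 17.4% held it in at least 1 promoter. A match is a run of letters and not a site shown to be bound, and its absence concerns only this window. The 3 promoters shown belong to genes that were higher in Fat, and the capitals in that of Aldh9a1 mark the match, whose first base lies at position -87 from the start. That of Akr1b8 lies at chr6:34353896-34354195 (plus strand), that of Aldh9a1 at chr1:167349741-167350040 (plus strand) and that of Ptgr1 at chr4:58987029-58987328 (minus strand).
Akr1b8: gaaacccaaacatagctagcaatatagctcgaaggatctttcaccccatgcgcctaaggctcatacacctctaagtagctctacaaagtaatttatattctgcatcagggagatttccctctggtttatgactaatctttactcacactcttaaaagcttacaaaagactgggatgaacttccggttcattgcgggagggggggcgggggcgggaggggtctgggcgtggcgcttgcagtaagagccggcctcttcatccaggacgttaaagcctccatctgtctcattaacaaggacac
Aldh9a1: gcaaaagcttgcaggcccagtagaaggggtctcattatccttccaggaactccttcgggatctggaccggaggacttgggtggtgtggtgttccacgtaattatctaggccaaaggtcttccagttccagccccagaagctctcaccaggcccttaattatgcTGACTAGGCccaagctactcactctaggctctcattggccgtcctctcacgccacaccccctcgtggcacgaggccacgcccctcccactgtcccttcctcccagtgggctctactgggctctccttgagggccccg
Ptgr1: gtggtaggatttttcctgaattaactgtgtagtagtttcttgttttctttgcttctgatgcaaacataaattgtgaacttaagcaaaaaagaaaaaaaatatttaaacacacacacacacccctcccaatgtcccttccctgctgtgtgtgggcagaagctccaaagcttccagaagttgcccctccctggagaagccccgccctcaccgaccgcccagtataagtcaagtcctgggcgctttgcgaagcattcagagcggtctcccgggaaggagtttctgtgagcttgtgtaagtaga
The share of G and C was 49.0% in the promoter of Akr1b8, 59.0% in that of Aldh9a1 and 47.0% in that of Ptgr1.

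Reads on genes were recovered from the CPM values by taking the lowest CPM above 0 in each library as a single read. By this the libraries held between 33573852 and 40785872 reads on genes. The totals of all libraries but Con replicate 1 are above the depth stated in the paper's methods. Levels are given as CPM, reads scaled by library size, or as TPM, which takes account of gene length as well. The comparison used limma on log2(CPM + 0.1) for the 12470 genes that reached 0.5 CPM in 2 or more libraries, and a gene was called at a Benjamini-Hochberg adjusted p-value under 0.05. Fold changes on this scale understate the change of low genes. Of 8 macrophage markers 7 were listed, all but Adgre1, and these 7 were tested. Their summed levels were 32779 to 34746 CPM in Con and 25917 to 27440 CPM in Fat. Lyz2 made up most of these sums, at 28720.5 and 26818.8 CPM in Con and 21516.1 and 20346.7 CPM in Fat. It was not called (log2 fold change -0.41, limma adjusted p = 0.209). Mertk and Fcgr1 were called lower, with log2 fold changes of -0.31 and -0.88. Csf1r, Cd14, Cd68 and Itgam were not called, with log2 fold changes of -0.21, -0.15, 0.09 and 0.07. The part of these differences in the results on the 9 enzymes was not tested. The 10 adipocyte markers summed to between 9.20 and 10.3 CPM in Con and between 16.5 and 21.6 CPM in Fat. Of the 3 that were tested, Car3 and Cidec were called higher, with at most 2 reads in a Con library. These 2 genes reached 0.5 CPM in the Fat libraries only, so they could be called higher but not lower. Of the 10 markers, Adipoq, Lep, Pck1 and Adrb3 were at 0 reads in both Con libraries. Slc36a2 held 306 of the 312 and 381 of the 388 marker reads of Con replicates 1 and 2, and 366 of the 807 and 427 of the 677 of Fat replicates 1 and 2. Neutrophil markers summed to between 350.9 and 411.3 CPM and stromal markers to between 438.0 and 574.7 CPM over the 4 libraries, and the stromal marker Dcn was called lower (log2 fold change -0.82). Lymphocyte and endothelial markers summed to at most 19.5 and 7.51 CPM. Of 3 red cell and 3 mesothelial markers, only 1 of each was listed, Hba-a1 and Upk3b, with at most 1 read in a library. In bulk samples, a change in the number of cells that express a gene and a change in its RNA per cell cannot be told apart.

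Of the 9 enzymes, 5 were higher in Fat (Gsta4, Akr1b8, Aldh9a1, Ptgr1 and Akr1b3) and 4 lay near their Con level (Akr1a1, Aldh2, Aldh3a2 and Aldh3b1). Their log2 fold changes ran from -0.10 to 1.67, with a median of 0.51 beside 0.01 over all tested genes. All 9 passed the filter on low values. The fit called 5 of them higher, beside 3.99% of all tested genes, and 0 lower, beside 5.0%. No member was lower at an unadjusted limma p-value under 0.05, or with edgeR or DESeq2 (0 in each case). In the same 5 genes both Fat libraries lay above both Con libraries, which held for 29.4% of the tested genes, and in 2 (Aldh3a2 and Aldh3b1) both lay below, which held for 26.2%. These counts follow from how the genes were chosen. Without limma's mean-variance trend only Gsta4 and Akr1b8 of the 5 were called, that is 2.

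**Figure D1:**
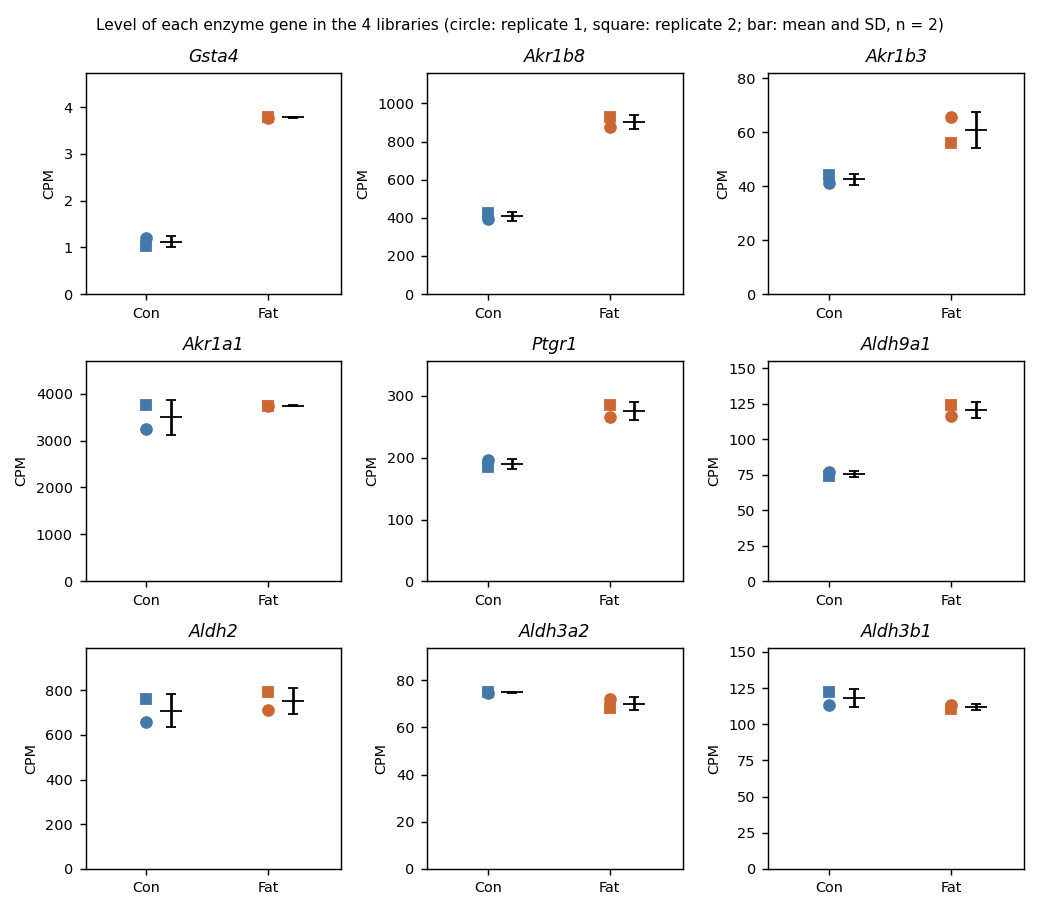
CPM of each of the 9 enzyme genes (vertical axes, each from 0) in the Con and Fat libraries, with circles for replicate 1, squares for replicate 2 and a bar for the mean and SD of 2 libraries. Gsta4, Akr1b8, Akr1b3, Ptgr1 and Aldh9a1 have both Fat points above both Con points, and the points of Akr1a1 and Aldh2 overlap between the media.

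Among the reductases, Akr1b8 encodes an aldo-keto reductase that acts on unsaturated lipid aldehydes. It was at 392 and 423 CPM in Con and at 876 and 926 CPM in Fat. Both Fat libraries lay far above both Con libraries, and the gap between replicates was small beside the gap between media. The mean was 408 ± 21.8 CPM (SD, n = 2) in Con and 901 ± 35.7 CPM (SD, n = 2) in Fat, a ratio of 2.21 and a log2 fold change of 1.14 (standard error 0.07). When single libraries were dropped, the fold change stayed from 1.09 to 1.20 on the log2 scale.

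Akr1b3 encodes aldose reductase, which reduces glucose to sorbitol and also takes lipid aldehydes. It was at 41.2 and 44.1 CPM in Con and at 65.5 and 56.0 CPM in Fat. The Fat libraries stood further apart from each other (0.23 on the log2 scale) than the Con libraries (0.10), with no overlap between the media. Its log2 fold change was 0.51 (standard error 0.08), with a range of 0.39 to 0.62 when single libraries were dropped. Of the stretches of 75 bases in its GENCODE vM21 transcripts, 12.1% occur exactly in transcripts of other genes, Gm38056, Gm6644, Gm6736 and Gm12138, so part of its reads may be counted elsewhere. For Akr1b8 this share was 0.422%, all of it with Akr1b10.

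Akr1a1 encodes aldehyde reductase, which uses NADPH and takes a wide range of aldehydes. It was at 3235 and 3762 CPM in Con and at 3729 and 3745 CPM in Fat. Con replicate 2 was above both Fat libraries, so the media overlapped, and the gap between the Con replicates (0.22 on the log2 scale) was larger than the fold change of 0.10 (standard error 0.11). Without Con replicate 1 the fold change was -0.01.

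Ptgr1 encodes an alkenal reductase that also inactivates prostaglandins and leukotriene B4. Its level was 196 and 184 CPM in Con and 266 and 286 CPM in Fat, with all Fat values above all Con values. The mean was 190.2 ± 8.17 CPM (SD, n = 2) in Con and 275.6 ± 14.2 CPM (SD, n = 2) in Fat, a ratio of 1.45 and a log2 fold change of 0.53 (standard error 0.06).

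Gsta4 encodes the glutathione transferase with the strongest preference for 4-hydroxynonenal. It was a low-level gene, with 41 and 39 reads in Con against 141 and 155 in Fat. These reads correspond to 1.21 and 1.04 CPM in Con and to 3.78 CPM in each Fat library, so the media were well apart and the Fat replicates were nearly equal. The ratio of the means was 3.36 and the log2 fold change was 1.67 (standard error 0.17), the largest of the 9 genes. With a pseudocount of 1 CPM it was 1.17.

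Adipocyte transcripts appeared in the same libraries, and their level was set beside that of Gsta4. Adipoq had 28 and 14 reads in Fat and 0 in either Con library, and Lep had 0 in both Con libraries and 30 and 18 in Fat. Car3 had 1 read in each Con library and 269 and 139 reads in Fat, and Cidec had 0 and 2 in Con and 67 and 47 in Fat. The CPM of Fat replicate 1 was 2.20 times that of Fat replicate 2 for Adipoq, 1.83 times for Lep, 2.13 times for Car3 and 2.09 times for Pck1, 1.57 times for Cidec and 0.915 times for Plin1. For Gsta4 this ratio was 0.999, for Akr1b8 0.946, for Aldh9a1 0.939, for Ptgr1 0.929 and for Akr1b3 1.17. The ratio of Pck1 rested on 19 and 10 reads, and that of Plin1 on 5 and 6 reads. No ratio was taken for the other adipocyte markers. In Fat replicates 1 and 2, Slc36a2 was at 9.81 and 10.4 CPM, Retn had 16 and 9 reads, Cfd 6 and 5, and Adrb3 1 and 2. The part of adipocyte RNA in the level of the 5 genes was not tested.

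Among the dehydrogenases, Aldh9a1 oxidises trimethylaminobutyraldehyde on the path to carnitine and other aminoaldehydes. It was at 77.0 and 74.3 CPM in Con and at 117 and 124 CPM in Fat. Both Fat libraries lay well above both Con libraries, and the replicates of each medium were close. The mean was 75.7 ± 1.89 CPM (SD, n = 2) in Con and 120.4 ± 5.36 CPM (SD, n = 2) in Fat, a ratio of 1.59 and a log2 fold change of 0.67 (standard error 0.06).

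Aldh2 encodes the mitochondrial enzyme that oxidises acetaldehyde and 4-hydroxynonenal. Its level was 658 and 761 CPM in Con and 710.1 and 793 CPM in Fat. The media overlapped, and replicate 2 was the higher library in each. The log2 fold change was 0.08 (standard error 0.09) and ran from -0.02 without Con replicate 1 to 0.19 without Con replicate 2.

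Aldh3a2 encodes fatty aldehyde dehydrogenase of the endoplasmic reticulum, which oxidises long-chain aldehydes. It was at 74.7 and 75.01 CPM in Con and at 71.9 and 68.2 CPM in Fat. Both Fat libraries were slightly lower, by 0.10 on the log2 scale at a standard error of 0.06. Aldh3b1, which oxidises medium-chain and long-chain aldehydes at membranes, was at 114 and 122 CPM in Con and at 113 and 110.3 CPM in Fat. Its log2 fold change was -0.08 (standard error 0.06), and the gap between Con replicate 1 and Fat replicate 1 was smaller than the gap between the Con replicates. Neither gene was called.

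**Figure D2:**
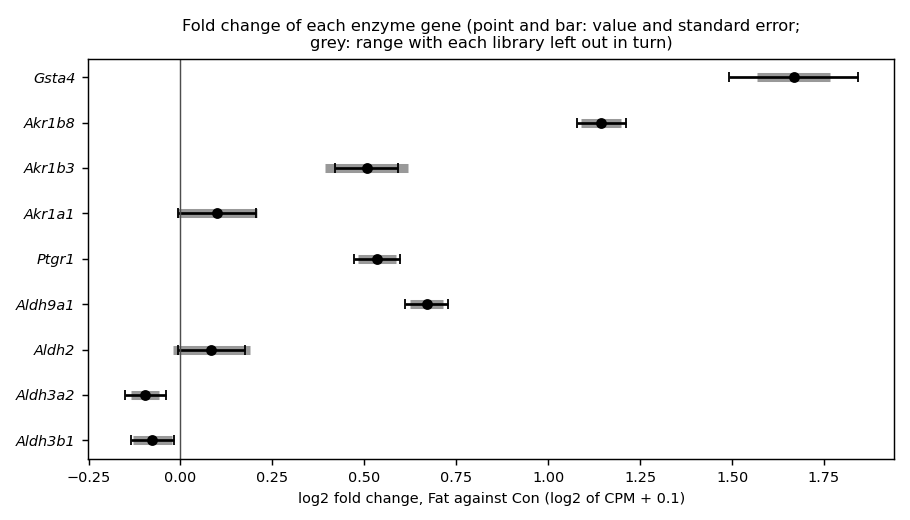
Log2 fold change of Fat against Con (horizontal axis, log2 of CPM + 0.1) for each of the 9 enzyme genes, with the standard error as a bar and the range over the 4 fits that each leave out 1 library in grey. The values run from -0.10 for Aldh3a2 to 1.67 for Gsta4, and the grey ranges of Akr1a1 and Aldh2 include 0.

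Set beside each other on the length-scaled TPM scale, the levels of the 9 genes in Con spanned from 2.54 TPM for Gsta4 to 5357 TPM for Akr1a1. In Con the order was Akr1a1, Aldh2 (696 TPM), Akr1b8 (677 TPM), Ptgr1 (196 TPM), Aldh3b1 (139 TPM), Akr1b3 (65.9 TPM), Aldh9a1 (57.9 TPM), Aldh3a2 (51.8 TPM) and Gsta4. The 2 Con libraries overlapped between Aldh2 and Akr1b8 only, so these neighbours did not differ beyond their spread, and every other pair of neighbours was apart. In Fat, Akr1b8 stood above Aldh2, at 1488 and 1573 TPM against 713 and 795 TPM, and the neighbours that overlapped were Akr1b3 and Aldh9a1. Gsta4 had the lowest level of the 9 genes in both media, at 8.74 TPM in each Fat library.

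The relative level of paralogs shifted with these differences. The TPM of Akr1b8 was 10.2 and 10.3 times that of Akr1b3 in Con, and 14.4 and 17.8 times in Fat. Akr1a1 was 7.60 and 8.20 times the level of Akr1b8 in Con and 3.93 and 3.73 times in Fat. The summed level of the 9 genes was 6834 and 7654 TPM in Con and 8718 and 8909 TPM in Fat. Akr1b8 made up 9.63% and 9.10% of that sum in Con and 17.1% and 17.7% in Fat, and Akr1a1 made up 73.2% and 74.6% in Con and 67.0% and 65.8% in Fat. Among the 4 Aldh genes, Aldh2 held between 71.9% and 74.7% of the summed TPM in every library, and Aldh9a1 held 6.61% and 5.68% in Con and 9.20% and 9.04% in Fat.

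**Figure D3:**
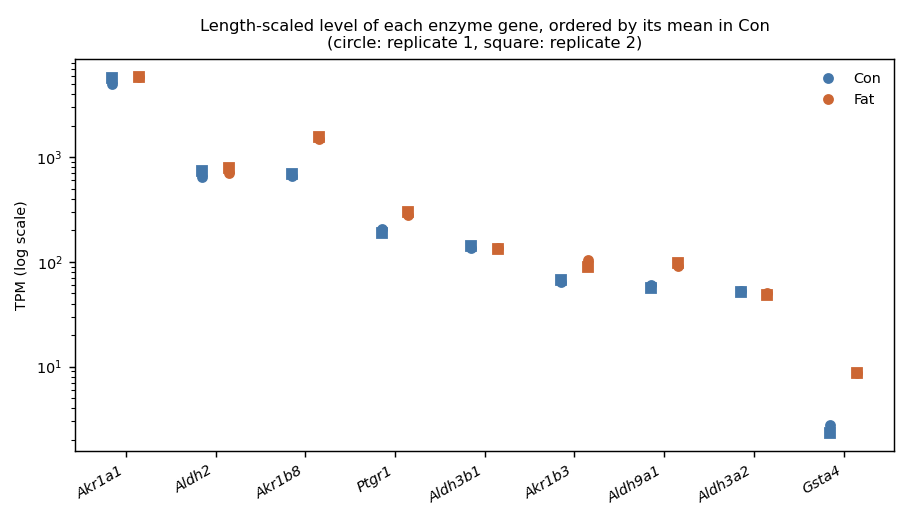
TPM (vertical axis, log scale) of the 9 enzyme genes in each library, ordered by the mean in Con, with circles for replicate 1 and squares for replicate 2. Akr1a1 has the highest level in both media and Gsta4 the lowest, and the Fat points of Akr1b8 lie above those of Aldh2.

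The profile over the 4 libraries was compared with those of other tested genes whose mean reached 5 CPM, as the Euclidean distance between log2(CPM + 0.1) values centred on each gene's mean. The nearest to Akr1b8 were Rims3 (distance 0.05), Engase (0.15) and Glul (0.16), which encodes glutamine synthetase. Glul was at 464 and 426 CPM in Con, and its log2 fold change was 1.15. Nearest to Gsta4 were Ret (distance 0.18), Plin2 (0.28), the coat protein of lipid droplets, and Car2 (0.32), with log2 fold changes of 1.51, 1.47 and 1.45. With 4 libraries in 2 groups, likeness of this kind mostly says that genes changed by a similar amount.

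Other genes were taken in 7 lists of 130 genes, 6 lists of genes that make, limit, clear or export lipid aldehydes and related compounds and 1 of NRF2 and its targets, of which 120 were listed and 94 were tested. The fit called 8 of the 94 higher and 4 lower in Fat, beside 3.99% and 5.0% of all tested genes, and their median log2 fold change was 0.00. Of the 8, 5 were in the list of NRF2 and its targets. Among 10 other aldehyde dehydrogenases tested, 0 were called higher and 1 lower, Aldh1l1, a cytosolic enzyme of folate metabolism. Aldh1l1 was at 22.6 and 24.8 CPM in Con and 18.1 and 15.7 CPM in Fat (log2 fold change -0.49, limma adjusted p = 0.0232). At an unadjusted limma p-value under 0.05, and with edgeR and DESeq2, 0 of these aldehyde dehydrogenases were higher as well. At that unadjusted p-value 2 were lower, and edgeR and DESeq2 each called 1 lower. The share of all tested genes at that unadjusted p-value was not counted. Aldh1a7 was under the filter on low values, with 0 reads in both Con libraries and 9 in each Fat library, and was singled out after its values were seen. Among 5 other aldo-keto reductases tested, 0 were called in either direction by limma, edgeR or DESeq2, and at an unadjusted limma p-value under 0.05 there were 0 higher and 1 lower. Their log2 fold changes lay between -0.17 and 0.06. Akr1b10, the paralog that shares stretches with Akr1b8, was at 66.9 and 68.0 CPM in Con and 66.5 and 59.8 CPM in Fat (log2 fold change -0.10, limma adjusted p = 0.434). Akr1b7 had 8 or 9 reads in every library. Both were named after their values were seen. Without Con replicate 2 the adjusted p of Aldh1l1 was 0.0563, and without Fat replicate 2 it was 0.0876.

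Of 15 other glutathione transferases tested, 1 was called higher, beside 3.99% of all tested genes. It was Mgst2, a membrane-bound enzyme that also makes leukotriene C4. Mgst2 was at 8.58 and 10.3 CPM in Con and at 16.1 and 16.4 CPM in Fat, a difference of 0.79 on the log2 scale (limma adjusted p = 0.00747), and stayed called whichever library was dropped. By limma, edgeR and DESeq2, 0 of these genes were called lower. At an unadjusted limma p-value under 0.05, 4 were lower, and the share of all tested genes there was not counted. Among 15 other carbonyl reductases and alcohol dehydrogenases, 0 were higher by any of the tools or at an unadjusted limma p-value under 0.05. Limma called 1 of them lower, beside 5.0% of all tested genes. It was Dcxr, which reduces dicarbonyls and xylulose. Dcxr was at 13.6 and 14.6 CPM in Con and at 9.75 and 10.5 CPM in Fat (log2 fold change -0.47, limma adjusted p = 0.0236). Its adjusted p was 0.0736 without Con replicate 2 and 0.0692 without Fat replicate 1.

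Of 13 genes that export or break down glutathione conjugates, Abcc4, a multidrug resistance transporter, was called higher (log2 fold change 0.31, limma adjusted p = 0.0289) and Lap3, leucine aminopeptidase, was called lower (log2 fold change -0.46, limma adjusted p = 0.0242). Abcc4 was at 47.3 and 45.1 CPM in Con and 55.1 and 59.1 CPM in Fat, and Lap3 was at 112 and 116 CPM in Con and 91.3 and 74.7 CPM in Fat. Over all tested genes, 3.99% were called higher and 5.0% lower. At an unadjusted limma p-value under 0.05, 4 of the 13 were higher and 3 lower. The share of all tested genes there was not counted. Besides Abcc4 the higher ones were Abcc1, Abcc3 and Abcc5 (log2 fold changes 0.18, 0.22 and 0.16). Besides Lap3 the lower ones were Dpep2 and Cndp2 (-0.16 and -0.20). Without Con replicate 2 the adjusted p of Abcc4 was 0.0736, and without Fat replicate 2 the values were 0.157 for Abcc4 and 0.0562 for Lap3. Of 14 genes that produce or limit lipid peroxides and fatty aldehydes, Lpcat3, which puts polyunsaturated fatty acids into phospholipids, was called higher (log2 fold change 0.27, limma adjusted p = 0.0255). Gpx3, a secreted glutathione peroxidase, was called lower (log2 fold change -0.38, limma adjusted p = 0.032). Lpcat3 had adjusted p-values of 0.0884, 0.0871 and 0.101 without Con replicate 1, Fat replicate 1 and Fat replicate 2, and Gpx3 had values of 0.0704 and 0.0897 without Con replicate 2 and Fat replicate 1. At an unadjusted limma p-value under 0.05, 1 of the 14 was higher, Lpcat3, and 5 were lower. The 5 were Gpx3, Aifm2, Gch1, Hacl1 and Alox5, with log2 fold changes of -0.38, -0.20, -0.26, -0.41 and -0.61. Apart from Gpx3, none of the 5 was called. Gpx4, the peroxidase that removes lipid hydroperoxides from membranes, had a log2 fold change of 0.01. Gpx4, Aifm2, Gch1, Hacl1 and Alox5 were named after their values were seen.

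Of 22 genes of NRF2 and its targets, 5 were called higher, beside 3.99% of all tested genes, and 0 lower, beside 5.0%, with a median log2 fold change of 0.12. The lists were drawn up with earlier results of these libraries known, so their direction is not independent evidence. At an unadjusted limma p-value under 0.05, 9 were higher and 2 lower, the regulators Nfe2l2 and Keap1. The share of all tested genes at that unadjusted p-value was not counted. It is larger than the shares called, so these counts cannot be set beside 3.99% and 5.0%. edgeR called 4 higher and DESeq2 7, and both called 0 lower. By limma 17 of the 22 were not called. Among these were Nqo1 (log2 fold change -0.05), Me1 (0.01) and G6pdx (0.03), which were named after their values were seen. Hmox1, which encodes heme oxygenase 1, was at 1242 and 1384 CPM in Con and at 2544 and 2518 CPM in Fat (log2 fold change 0.95, limma adjusted p = 0.00286). Gclc, the catalytic subunit of the enzyme that starts glutathione synthesis, was at 97.0 and 103 CPM in Con and at 141 and 156 CPM in Fat (log2 fold change 0.57, limma adjusted p = 0.00514). The other called genes were Slc7a11, the cystine transporter (0.36, limma adjusted p = 0.0451), Srxn1, sulfiredoxin (0.35, limma adjusted p = 0.0223), and Gsr, glutathione reductase (0.24, limma adjusted p = 0.0473). Gsr was named after its value was seen. Nfe2l2, the gene of NRF2 itself, was at 302 and 269 CPM in Con and 246 and 259 CPM in Fat (log2 fold change -0.17, limma adjusted p = 0.184), and Keap1 had a log2 fold change of -0.16 (limma adjusted p = 0.144). Hmox1 and Gclc stayed called whichever library was dropped. Without the mean-variance trend, neither they nor any other gene of the 7 lists was called. Without Con replicate 1 the adjusted p of Srxn1 was 0.0515. Without Con replicate 2 it was 0.0926 for Slc7a11 and 0.131 for Gsr, without Fat replicate 1 it was 0.127 for Slc7a11 and 0.128 for Gsr, and without Fat replicate 2 it was 0.051 for Slc7a11, 0.115 for Srxn1 and 0.177 for Gsr.

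**Figure D4:**
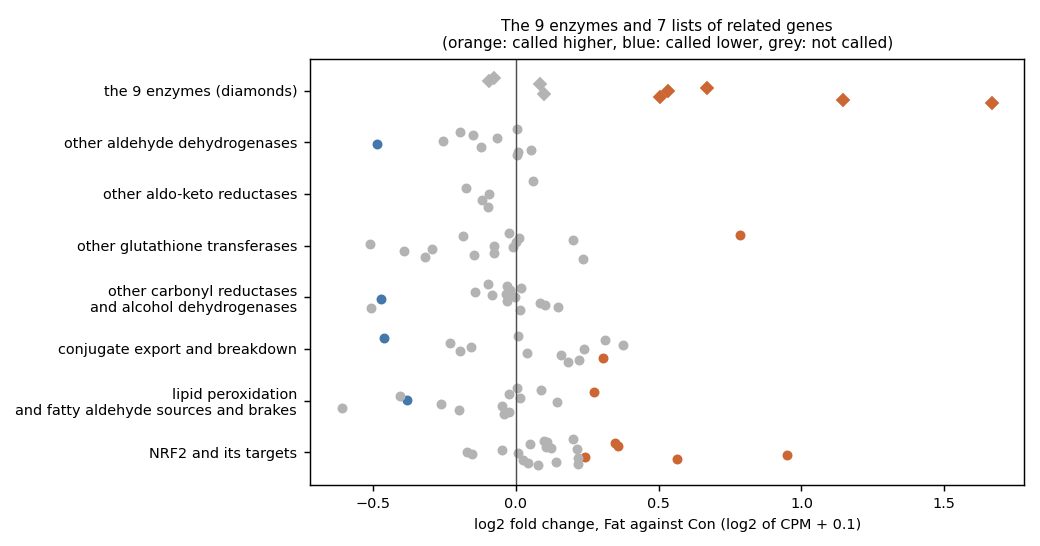
Log2 fold change of Fat against Con (horizontal axis, log2 of CPM + 0.1) for the 9 enzymes (diamonds) and for the tested genes of 7 lists of related genes (circles), coloured by whether limma called them higher, lower or not. Of the 9 enzymes, 5 lie between 0.51 and 1.67, and the largest value in the lists is 0.95, for Hmox1.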

How the data were processed

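RNA sequencing of macrophages in Con and Fat medium was analysed, with 2 libraries per medium grouped by their titles. The values deposited by the authors are CPM, scaled by library size and a further factor per library, and TPM, which takes account of gene length. Per the submitters' processing notes the build was GRCm39, and the aligner, counter and annotation are not given in the sources used here. Whole reads were recovered from the CPM values for 100% of the entries (within 0.01 of a whole number), giving 33573852 to 40785872 reads per library.

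Fat was compared with Con with limma 3.58.1 (R 4.3.3, mean-variance trend) on log2(CPM + 0.1), as a two-sided test. P-values were adjusted by Benjamini-Hochberg over the 12470 genes that reached 0.5 CPM in 2 or more libraries. edgeR 4.0.16 and DESeq2 1.42.0 were run on the recovered reads, and the fits were tested on simulated data. The 9 genes and the lists were chosen with earlier results of these data known. From each list, the up to 4 called genes with the largest change in each direction were named, with Nfe2l2, Keap1, the 3 genes most like Akr1b8 and Gsta4, and the markers. The replicate numbers are the only link between libraries, so no pairing was used. Stretches of 75 bases were matched exactly, on either strand, in the GENCODE vM21 transcripts. Protein sequences were not used here. Python 3.11.15 with numpy 2.4.6, pandas 2.3.3 and matplotlib 3.10.9 was used for the rest.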

Additional observations from a re-analysis of the deposited data

How the results depend on the processing

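Under 13 alternatives, the 5 genes called higher among the 9 enzymes kept their direction wherever they had a value, and Akr1a1 and Aldh2 changed sign in 1 alternative, without Con replicate 1. Over all genes, 1122 were called, 529 (without Fat replicate 2) to 1131 with single libraries dropped (666 without Con replicate 1), 2520 with the replicate number as a block (same-numbered libraries deviated together at r = 0.2 over 12470 genes) and 31 without the mean-variance trend. The median of the 9 enzymes was 0.51 on the log2 scale, 0.39 to 0.49 with each library left out, and 0.30 with a mean of at least 5 CPM, where Gsta4 was not included. In the 7 lists, 8 genes were called higher and 4 lower, 5 and 1 with the TPM values, 13 and 12 with the replicate block, 0 and 0 without the trend, and 3 to 6 and 2 to 4 with each library left out. In the fits without a library, the lone library of a medium is assumed to vary like the others. The replicate block changed no call among the 9 enzymes, and it called Nfe2l2 lower (limma adjusted p = 0.0479). The edgeR quasi-likelihood test called 1138 genes and DESeq2 1051, with 5 of the 9 enzymes in each. Gsr lost its call under 9 alternatives. With 2 libraries per medium, small changes of the 4 genes that were not called may be missed, and depth limits Gsta4 most, at 39 to 155 reads.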
